A study of Mus musculus with 10 samples.

Results

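Periportal hepatocytes, the liver cells nearest the portal vein, carry most of the liver's urea cycle, and 10 genes of that cycle and of the amino acid breakdown that feeds it were followed: Cps1, Nags, Otc, Slc25a15, Ass1, Asl, Arg1, Hal, Sds and Gls2. They were chosen by name. Each gene was read from the probe set, the group of short probes for 1 transcript, with the highest mean signal over all 10 arrays. Of the 10 genes, 8 had a probe set listed for them alone, out of 18194 genes with such a probe set on the array. Sds and Gls2 were not analysed here. The brightest Ass1 probe set was also listed for Gm5424, a near-identical pseudogene copy, so it is described as Ass1/Gm5424 beside the dim probe set listed for Ass1 alone. That gave 9 probe sets, all of which passed the filter on low signals, with 3 further probe sets for Otc and Slc25a15. Counts out of 9 members are counts of these probe sets, so Ass1 enters them with its own and with the shared one.

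The arrays held liver RNA of mice of a 129/B6 background. The dysplastic nodule and its adjacent liver came from a female aged 21 months, 1 hepatocellular carcinoma (HCC) and its adjacent liver from a male aged 18 months, and the other HCC and its adjacent liver from a female aged 14 months, all Gnmt knockout. Young liver was sampled at 11 weeks as 2 Gnmt knockout pools and 2 wild-type pools, a female and a male pool of each genotype, with equal RNA from 3 mice in each pool. The deleted gene codes for glycine N-methyltransferase, which uses S-adenosylmethionine and is abundant in liver. No aged wild-type liver was among these arrays, so every comparison of lesions and of aged liver lies within the knockout genotype. The labels give no mouse numbers, and each lesion was paired with the adjacent tissue that matches it in sex and age.

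The urea cycle turns ammonia from amino acid breakdown into urea. In mitochondria, Nags makes N-acetylglutamate, the activator of carbamoyl phosphate synthetase (Cps1), whose product Otc joins to ornithine brought in by the carrier Slc25a15. In the cytosol, Ass1 and Asl add the nitrogen of aspartate and release arginine, and Arg1 splits arginine into urea and ornithine. Hal starts the breakdown of histidine. These genes are known to be strongly expressed in healthy hepatocytes, more so near the portal vein than near the central vein.

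The signal of Gnmt, the deleted gene, lay between 11.7 and 329.4 on the 8 knockout arrays, against 59472.6 and 52139.9 on the wild-type female and male arrays. All arrays had the same trimmed mean signal of 500 and medians of 77.4 to 102.4. Hepatocyte markers were bright on every array, with sums over 8 genes between 383667 and 715433. Both arrays of the aged male stood apart: the summed signal of 5 neutrophil markers was 15283 in its HCC and 15155 in its adjacent liver, against 395 to 1449 on the other arrays, and that of 12 clock genes was 4932 and 5217, against 10024 to 27817. The lowest clock sum among the young pools was that of the wild-type female pool, with a Dbp signal of 190.6 against 8413.8 to 11096.8 in the other young pools. The ratio of 2 hybridisation controls, bioC over bioB, was at most 1.60 on the aged arrays and at least 2.98 on the young ones.

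The lesions were compared with the liver beside them to ask whether the cycle's transcripts are kept in a tumour. In the female HCC, all 9 probe sets were lower than in its adjacent liver and 6 of them were at least 2-fold lower, where 48.6% and 4.07% of the 11034 features tested were so. In the male HCC, 6 of 9 were lower and only Otc was at least 2-fold lower, against 53.8% and 4.6% of features. In the nodule, 9 of 9 were lower and 0 of 9 reached 2-fold, against 47.9% and 3.86% of features, but after quantile normalization Otc was at 0.01 and Cps1 at -0.03 log2 units there. The median log2 difference of the 9 was -1.21 in the female HCC, -0.25 in the male HCC and -0.51 in the nodule, beside 0.02, -0.04 and 0.02 over all features. Otc, Slc25a15, Ass1 and Asl were lower in both HCC, while Cps1, Arg1 and Hal were lower in the female HCC and within 0.08 log2 units of the adjacent liver in the male. No member passed the test in limma at an adjusted p of 0.05. The ratio of 3′ to 5′ probe sets, a measure of RNA integrity, was higher in the female HCC than in its adjacent liver, at 3.46 against 2.61 for Actb and 1.07 against 0.854 for Gapdh. It was 3.00 against 3.62 and 1.29 against 1.33 in the male HCC, and 2.46 against 2.56 and 0.855 against 0.986 in the nodule. The part of RNA integrity in the member differences was not tested. Because the arrays measured whole tissue, fewer hepatocytes and less RNA per hepatocyte cannot be told apart.

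**Figure D1:**
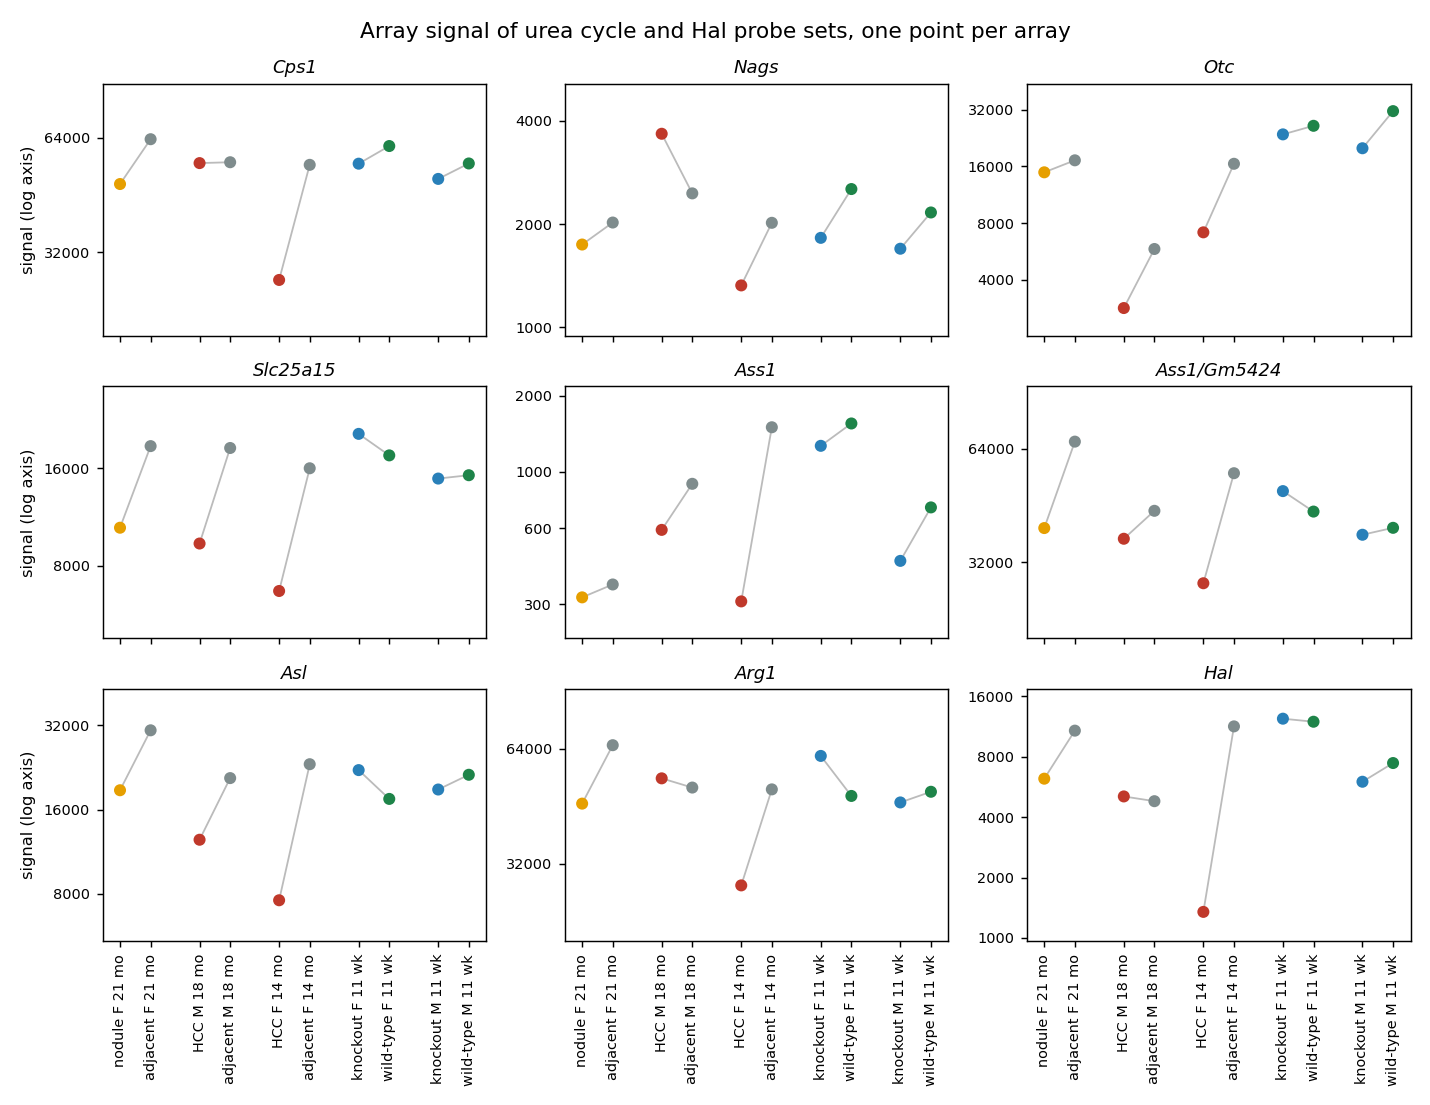
Array signal (log axis, a scale of its own in each panel) of the 9 probe sets, with 1 point per array and a line joining the arrays of a pair: lesion left of its adjacent liver, knockout pool left of the wild-type pool of the same sex. Slc25a15 and Asl lie below their adjacent liver in all 3 lesions, and the female HCC is the lowest array for every probe set except Otc, whose lowest is the male HCC.

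Otc, ornithine transcarbamylase, joins carbamoyl phosphate to ornithine. By the brightest probe sets, it was the member at least 2-fold lower in both HCC. Slc25a15 was close, at -0.98 and -1.26 log2 units in the male and female HCC, and its second probe set was at -1.29 and -1.26. Otc read 2826.1 in the male HCC, against 5822.6 in its adjacent liver, and 7139.3 in the female HCC, against 16523.1 in its adjacent liver. The nodule read 14884.1 and its adjacent liver 17238.3. The young pools were all higher than any aged array, at 23680.2 and 19983.4 in the female and male knockout pools and 26301.9 and 31479.0 in the wild-type pools. The HCC and adjacent values overlapped, because the male's adjacent liver lay below the female HCC. Within the pairs the log2 differences were -1.04 and -1.21 in the male and female HCC and -0.21 in the nodule. A difference of at least 2-fold lower in both HCC pairs was found for 0.598% of features. The limma estimate over both HCC pairs was -1.12 ± 0.26 (SE, 2 pairs; 95% interval -1.72 to -0.52), with an unadjusted p of 0.00228 and an adjusted p of 0.211.

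The other Otc probe sets were dimmer and lower in the lesions as well. The second gave 1220.3 in the male HCC, against 4137.8 in its adjacent liver, and 3960.6 in the female HCC, against 9445.1. The dimmest, listed for Otc too, gave 17.9 in the male HCC, against 81.2, and 95.1 in the female HCC, against 152.5, where the added constant of 16.8 weighs on the log2 scale. In log2 units the second probe set differed by -1.75, -1.25 and -0.28 in the male HCC, the female HCC and the nodule, and the dimmest by -1.50, -0.60 and -0.27. All 3 probe sets therefore had the lowest signal of the 10 arrays in the male HCC.

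**Figure D2:**
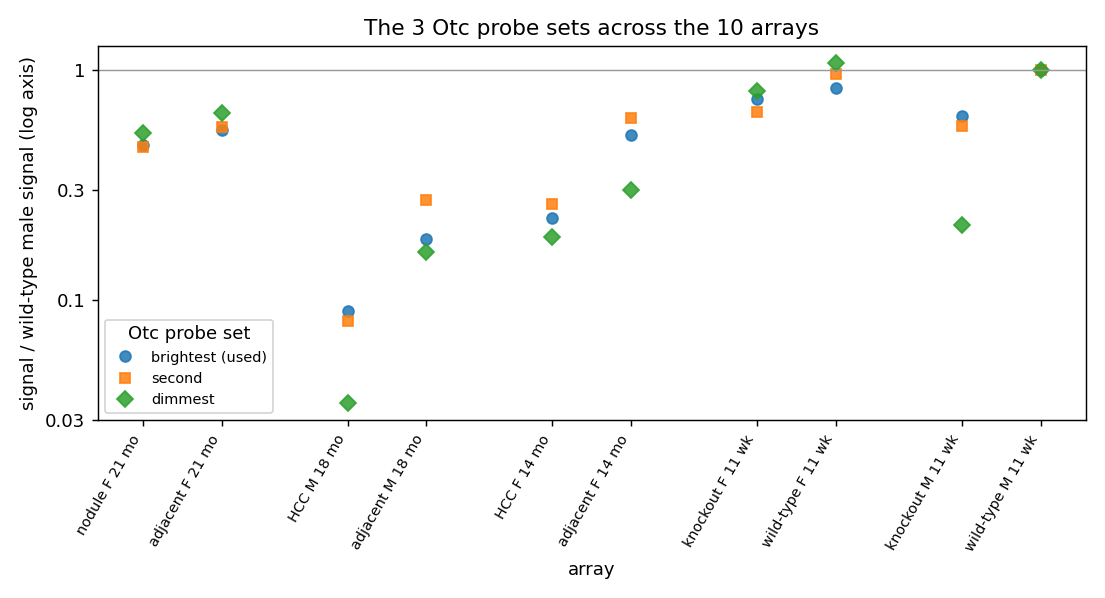
Signal of the 3 Otc probe sets on each array divided by that probe set's signal in the wild-type male pool (log axis), lesion left of its adjacent liver and knockout left of wild-type. The probe sets run in parallel over most arrays and are lowest in the male HCC. The dimmest lies below the others in the knockout male pool, where it read 106.9 against 503.6 in the wild-type male pool. It also lies below them in the male HCC (17.9) and in the adjacent liver of the female aged 14 months (152.5).

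The Otc gene lies on chromosome X, at 10252230 to 10321024 of the RefSeq annotation of GRCm38.p6. The promoter windows of Otc and Ass1 are printed by a rule applied to the 9 probe sets. It asked for a difference of over 1 log2 unit in the same direction in every pair of a comparison. For Otc these were the HCC pairs. For Ass1 they were young females against males, on the dim probe set only, at 1.48 in knockout and 1.08 in wild-type pools. The shared Ass1/Gm5424 probe set differed by 0.38 and 0.14 there. The further probe sets did not enter this choice, although the second of Slc25a15 differed by -1.29 and -1.26 in the male and female HCC. The window of Hal was chosen after its values were seen, because Hal had the largest difference in a single pair. Each window runs from 250 bases before to 50 bases after a RefSeq start, on the gene's own strand: chrX:10252055-10252354 for Otc, chr2:31470020-31470319 for Ass1 and chr10:93488518-93488817 for Hal, all on the plus strand of GRCm38.p6. Capitals mark matches to the motifs searched.
Otc promoter: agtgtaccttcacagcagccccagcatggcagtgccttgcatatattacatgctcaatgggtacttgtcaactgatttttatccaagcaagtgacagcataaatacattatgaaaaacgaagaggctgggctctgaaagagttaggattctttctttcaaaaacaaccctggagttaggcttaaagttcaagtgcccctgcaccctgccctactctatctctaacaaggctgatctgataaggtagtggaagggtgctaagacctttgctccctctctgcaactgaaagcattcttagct
Ass1 promoter: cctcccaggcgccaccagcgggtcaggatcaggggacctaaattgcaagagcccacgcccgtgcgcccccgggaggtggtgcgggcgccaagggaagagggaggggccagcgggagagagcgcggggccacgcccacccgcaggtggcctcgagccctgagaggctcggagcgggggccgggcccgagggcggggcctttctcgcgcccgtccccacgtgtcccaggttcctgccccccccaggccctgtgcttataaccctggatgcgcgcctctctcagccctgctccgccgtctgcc
Hal promoter: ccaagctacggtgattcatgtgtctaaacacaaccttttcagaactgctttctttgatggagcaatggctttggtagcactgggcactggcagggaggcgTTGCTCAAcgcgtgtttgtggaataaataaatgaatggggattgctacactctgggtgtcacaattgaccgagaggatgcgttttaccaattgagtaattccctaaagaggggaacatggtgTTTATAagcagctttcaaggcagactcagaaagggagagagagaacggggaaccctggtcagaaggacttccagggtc
Both strands were searched for TGACGTCA (the cyclic AMP response element) and its part TGACG, TTGCGCAA and TTGCNNAA (C/EBP), CAAAGTCCA (HNF4), TGTTCT (part of the glucocorticoid receptor element) and the TATA box TATAAA. Searches overlap, since TGACGTCA contains TGACG and TTGCNNAA covers TTGCGCAA. The Otc and Ass1 windows held none of these letters. The Hal window held TTGCNNAA from position -150 relative to the start and, read on the minus strand, TATAAA from position -28. Of 32851 RefSeq promoter windows of this length, 10.8% held TTGCNNAA and 13.62% held TATAAA. The shares were 20.81% for TGACG, 18.97% for TGTTCT, 1.79% for TGACGTCA, 0.47% for CAAAGTCCA and 0.18% for TTGCGCAA. A match is only a run of letters, and the absence of one says only that it is not in this window.

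Slc25a15, the mitochondrial ornithine carrier, was lower in every lesion. The signals were 9379.7 in the male HCC, against 18483.0 in its adjacent liver, 6695.8 in the female HCC, against 16004.8, and 10494.0 in the nodule, against 18732.4. All 3 lesions lay below all 3 adjacent livers and all 4 young pools, which read 14876.6 to 20432.2. The log2 differences were -0.98, -1.26 and -0.83, and the limma estimate over the 3 pairs was -1.02 ± 0.19 (SE; 95% interval -1.47 to -0.57) with an unadjusted p of 0.00123 and an adjusted p of 0.209. The second Slc25a15 probe set differed by -1.29, -1.26 and -0.86 in the male HCC, the female HCC and the nodule. The gene lies on chromosome 8, at 22375550 to 22398621.

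Cps1, which commits ammonia to the cycle, was among the brightest probe sets, with 0.129% of all probe sets brighter on average. Its signal was 54858.5 in the male HCC, against 55146.1 in its adjacent liver, 27036.7 in the female HCC, against 54282.7, and 48327.9 in the nodule, against 63395.6. Only the female HCC stood clear of the other arrays, all of which lay between 48327.9 and 63395.6. The limma estimate over both HCC pairs was -0.51 ± 0.32 (SE; adjusted p = 0.815), and its 95% interval of -1.23 to 0.22 includes a 2-fold reduction. At such brightness a probe set may respond less than in proportion to RNA, which was not tested. After quantile normalization the nodule's log2 difference was -0.03 in place of -0.39. Nags, which makes the activator of Cps1, differed in direction between the HCC: it read 3668.9 in the male HCC, against 2458.8 in its adjacent liver, and 1325.6 in the female HCC, against 2018.0. The male HCC had the highest Nags signal of all 10 arrays and the female HCC the lowest. The log2 differences were 0.57 and -0.60, and that between the nodule (1744.2) and its adjacent liver (2021.7) was -0.21.

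Asl, which releases arginine from argininosuccinate, was lower in all 3 lesions. It read 12484.7 in the male HCC, against 20713.2 in its adjacent liver, 7594.9 in the female HCC, against 23216.6, and 18746.1 in the nodule, against 30667.3. The lesions lay below every adjacent liver, although the nodule was within the range of the young pools (17458.1 to 22119.1). The log2 differences were -0.73, -1.61 and -0.71. Over the 3 pairs limma gave -1.02 ± 0.24 (SE; 95% interval -1.60 to -0.43) with an adjusted p of 0.295, and over the HCC pairs -1.17 ± 0.30 with an adjusted p of 0.27. Arg1, the arginase that releases urea, read 53488.4 in the male HCC, against 50600.7 in its adjacent liver, 28066.6 in the female HCC, against 50050.2, and 45934.5 in the nodule, against 65316.1. Like Cps1 it was very bright, with 0.142% of probe sets brighter. The female HCC lay well below the other 9 arrays, which ran from 45934.5 to 65316.1. Its log2 differences were 0.08, -0.83 and -0.51, and the limma estimate over the HCC pairs was -0.38 ± 0.31 (SE; adjusted p = 0.872).

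Ass1, argininosuccinate synthase, was measured by probe sets that differed in size of effect. The one listed for Ass1 alone read 590.1 in the male HCC, against 897.2 in its adjacent liver, 307.9 in the female HCC, against 1500.7, and 319.4 in the nodule, against 359.1. The shared Ass1/Gm5424 probe set read 36977.5 in the male HCC, against 43853.0, 28186.0 in the female HCC, against 55163.5, and 39471.7 in the nodule, against 66887.7. Both were lower in every lesion, but the dim one differed most in the female HCC, by -2.22 log2 units against -0.97, and least in the nodule, by -0.16 against -0.76. Gm5424 and Ass1 transcripts cannot be told apart on the shared probe set. The limma estimates over the HCC pairs were -1.41 ± 0.39 (SE; adjusted p = 0.326) for the Ass1 probe set and -0.61 ± 0.30 (SE; adjusted p = 0.722) for Ass1/Gm5424.

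Hal, histidine ammonia-lyase, showed the largest single difference among the members. Its signal in the female HCC was 1348.8, against 11314.6 in the adjacent liver, a log2 difference of -3.05 or 8.30-fold lower. The male HCC read 5068.1, against 4799.3 in its adjacent liver, and the nodule 6212.3, against 10775.3. The HCC therefore lay on both sides of the male's adjacent liver, and the limma estimate over the HCC pairs was -1.49 ± 0.59 (SE; 95% interval -2.84 to -0.14) with an unadjusted p of 0.0343 and an adjusted p of 0.598. With the male pair left out, the estimate was that of the single female pair, at -3.05. That fit takes its spread from the young pools and from all features, and says nothing of the spread between lesions or aged mice.

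**Figure D3:**
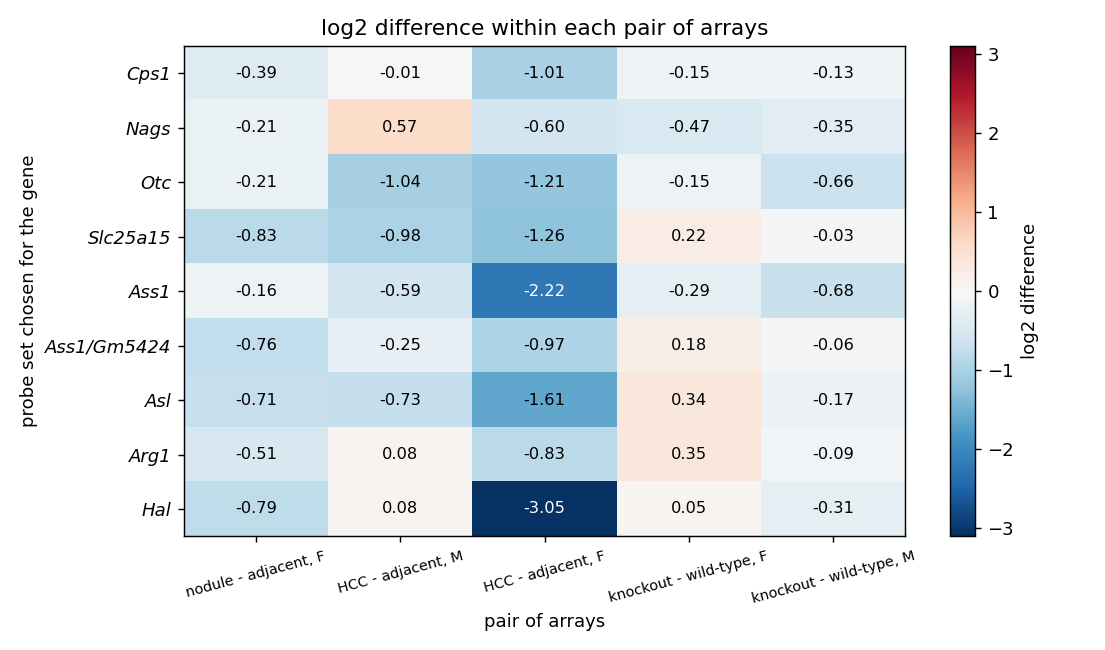
Log2 difference of each probe set within each pair of arrays, as colour and number, for the lesions minus their adjacent liver and for knockout minus wild-type pools. The column of the female HCC is blue throughout, from -0.60 for Nags to -3.05 for Hal, whereas the male HCC column holds Nags at 0.57 and values near 0 for Cps1, Arg1 and Hal.

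Across the HCC pairs 0 of 9 members passed limma's test at an adjusted p of 0.05, which 0.0816% of features did. At an unadjusted p under 0.05 there were 5 of 9, namely Otc, Slc25a15, Ass1, Asl and Hal, against 7.67% of features. In 4 of 9, Slc25a15, Asl and both Ass1 probe sets, every HCC lay below every paired adjacent liver, as it did for 13% of features. Over all 3 lesions, 0 of 9 passed at the adjusted p, against 0.00906% of features, and 5 of 9 had an unadjusted p under 0.05, against 9.95%: Otc, Slc25a15, Ass1, Asl and Ass1/Gm5424. Lesions and adjacent livers did not overlap for Slc25a15, Asl and Ass1/Gm5424, as for 4.12% of features. A p that misses the threshold with 2 or 3 pairs does not show that the levels were the same.

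Hepatocyte markers were lower in the nodule and, for some of them, in the female HCC. Their summed signal was 410265 in the female HCC, against 452536 in its adjacent liver, and 5 of 8 were lower, with a median log2 difference of -0.13. In the nodule the sum was 383667, against 506224, and 8 of 8 were lower, with a median of -0.33 beside the members' -0.51. In the male HCC the sum was 715433, against 618248, with a median of 0.21. None of the 8 markers was 2-fold lower in a lesion, whereas 6 of 9 members were so in the female HCC. The largest marker decrease was that of Fgb in the nodule, at -0.95. These markers were very bright, and at such brightness a probe set may respond less than in proportion to RNA, which was not tested. Among 7 stellate cell markers, the collagen genes Col1a1 and Col3a1 differed by 2.53 and 2.09 log2 units in the female HCC, by 0.01 and 0.25 in the male HCC and by 4.42 and 2.12 in the nodule. The summed signal of the 7 was 15759 in the female HCC, against 14462 in its adjacent liver, 20491 in the male HCC, against 22300, and 13363 in the nodule, against 11518. There were 3 of 7 lower in the female HCC, 5 of 7 in the male HCC and 2 of 7 in the nodule. The part of hepatocyte and stellate cell content in the member differences was not tested.

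Genes that supply the cycle or break down other amino acids were followed in 5 lists, of which 61 genes passed the filter. In the female HCC, 54 of 61 were lower and 24 (39.34%) at least 2-fold lower than in adjacent liver, against 48.6% and 4.07% of all features. In the male HCC these counts were 41 and 6 (9.84%), against 53.8% and 4.6% of features. In the nodule they were 54 and 7 (11.48%), against 47.9% and 3.86%. The lists' medians in the female HCC ran from -0.63 for branched-chain amino acid catabolism to -1.23 for tryptophan and lysine catabolism. In no list did a gene pass limma's adjusted test for the lesions. Got1, the cytosolic aspartate aminotransferase, read 2422.3 in the female HCC, against 21061.4 in adjacent liver, and 7414.9 in the male HCC, against 11248.4. Got2, the mitochondrial form, differed by -0.18 log2 units in the female HCC, 0.11 in the male HCC and -0.21 in the nodule. Slc7a2, a transporter of cationic amino acids including arginine, read 2481.3, against 16092.3, in the female HCC and 7509.5, against 9318.7, in the male. Car5a, the mitochondrial carbonic anhydrase that supplies bicarbonate to Cps1, read 1364.6, against 2528.3, in the female HCC and 265.7, against 874.0, in the male.

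Oat, ornithine aminotransferase, had the most negative HCC estimate of the 5 lists. It read 4323.0 in the male HCC, against 11473.9 in adjacent liver, 4759.6 in the female HCC, against 23973.5, and 5426.8 in the nodule, against 28294.1. All 3 lesions lay below every other array. The limma estimate over the HCC pairs was -1.87 ± 0.31 (SE; adjusted p = 0.0874). Oat is known as a pericentral gene, at the other end of the lobule from the members, and of 12 pericentral genes 12 were lower in the female HCC (median -0.78), 7 in the male HCC (-0.71) and 8 in the nodule (-0.59), where 48.6%, 53.8% and 47.9% of all features were lower. In the nodule, 2 of the 12 were at least 2-fold higher. Arg2, the mitochondrial arginase that is scarce in healthy liver, differed the other way: it read 1325.7 in the nodule, against 84.8, 906.2 in the male HCC, against 252.8, and 168.5 in the female HCC, against 102.5. Arg2 did not pass the test over the HCC pairs (1.21 ± 0.40 SE, adjusted p = 0.47).

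**Figure D4:**
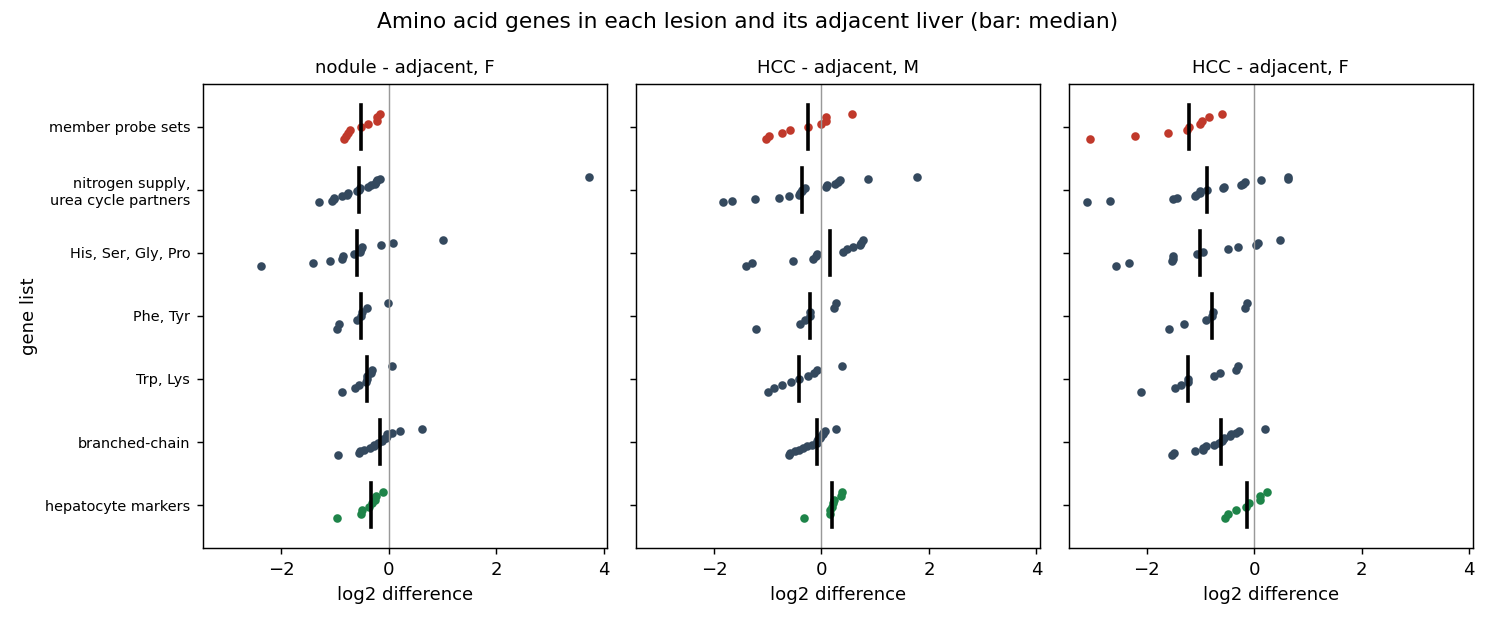
Log2 difference within each lesion pair for the 9 member probe sets (red), the genes of 5 lists of amino acid metabolism (dark blue) and hepatocyte markers (green), with 1 point per gene and a bar at the median. In the female HCC the medians of the members and the 5 lists lie between -0.63 and -1.23 and that of the hepatocyte markers at -0.13. In the male HCC they lie between -0.42 and 0.16, and the outlying point at 3.72 in the nodule is Arg2.

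Among 9 regulators of these genes, Klf15, a transcription factor known to promote amino acid breakdown, read 1365.5 in the female HCC, against 5755.9, and 1067.9 in the male HCC, against 1598.6 (limma estimate -1.32 ± 0.37 SE, adjusted p = 0.325). Cebpb differed by -0.42 in the male HCC and -0.81 in the female HCC, and Foxo1 by 1.28 in the male and -0.09 in the female. None of the 9 passed the test. Of 8 other periportal genes, 5 were lower in the female HCC and 5 in the male HCC, where 48.6% and 53.8% of features were lower. Their medians were -0.32 and -0.15. In the female HCC, 2 of the 8 were at least 2-fold lower, Pck1 (-1.76) and G6pc (-1.42). In the male HCC 1 was so, Igfals (-1.27). Cdh1, which encodes E-cadherin, read 9274.4 in the female HCC, against 2229.2, and 7138.2 in the male HCC, against 3280.5, and so differed in the opposite direction to most members.

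Adjacent aged liver was compared with young liver of the same genotype to ask what differed outside the lesions. Otc was 17238.3, 5822.6 and 16523.1 in the adjacent livers of the female aged 21 months, the male and the female aged 14 months, all below the young knockout pools. The limma estimate was -1.04 ± 0.32 (SE; 95% interval -1.80 to -0.28) with an unadjusted p of 0.0143 and an adjusted p of 0.386. Much of it came from the male, whose adjacent liver differed by -1.78 from the young male pool, while the females differed by -0.46 and -0.52. Without the male's adjacent liver the estimate was -0.49. Without the female young pool it was -1.78, the difference of 1 male array from 1 male pool. The adjusted p of 0.0184 of that fit takes its spread from the 2 female adjacent livers and from all genes, and says nothing of the spread between males. The male's array also had the high neutrophil and low clock signals given above, and their part in the Otc difference was not tested.

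The estimates of the other members in adjacent liver ran from -0.23 for Hal to 0.31 for Nags. That of Ass1 hid large differences from the young pool of the same sex, at -1.77 and 0.24 in the females aged 21 and 14 months and 0.98 in the male. Nags averaged 2166.2 ± 253.4 in adjacent liver (SD, n = 3) and 1760.0 ± 90.8 in young knockout liver (SD, n = 2), and these groups did not overlap. Ass1 had an estimate of -0.02 with a 95% interval of -1.56 to 1.53, since its adjacent livers read 359.1, 897.2 and 1500.7. No member and no other feature (0%) passed limma's adjusted test. At an unadjusted p under 0.05, Otc was the 1 member of 9, against 12.3% of features. Otc was also the 1 member lying lower with no overlap, as 10.7% of features did, and Nags the 1 lying higher, as 17.1% did. Of the 61 genes of the wider lists, 23 were at least 2-fold lower in the male's adjacent liver than in the young male pool, beside 8.09% of all features, and 0 were so in either female, beside 3.68% and 2.23%. Age, pooling and the set of arrays changed together here and cannot be told apart.

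Knockout liver was compared with wild-type liver at 11 weeks to ask how they differed at a young age. The estimates for the members ran from -0.49 for Ass1 to 0.13 for Arg1. Among 9 members 0 passed limma's test, which 1.45% of features did, and 0 had an unadjusted p under 0.05, which 19.5% of features had. Both knockout pools lay below both wild-type pools for 3 of 9, namely Cps1, Nags and Otc, as for 26.1% of features. Nags read 1824.2 and 1695.8 in the female and male knockout pools, against 2531.3 and 2162.9 in the wild-type pools, an estimate of -0.41 ± 0.22 (SE; 95% interval -0.92 to 0.10, adjusted p = 0.35). Otc averaged 21831.8 ± 2614.0 in knockout and 28890.4 ± 3660.8 in wild-type pools (SD, n = 2 each), an estimate of -0.40 ± 0.19 (95% interval -0.86 to 0.05, adjusted p = 0.306). Cps1 averaged 52257.2 ± 3404.7 in knockout and 57782.2 ± 4311.6 in wild-type pools (SD, n = 2 each), an estimate of -0.14 ± 0.15 (SE) that was 0.01 after centring each array on its 75th percentile. The dimmer probe sets gave other values. The second Otc probe set differed by -0.55 and -0.81 in females and males and the dimmest by -0.39 and -2.07, and with the mean of all 3 the Otc estimate was -0.77 ± 0.24 (SE, adjusted p = 0.206). The second Slc25a15 probe set differed by -0.82 and -0.40, whereas the estimate from the brightest was 0.09.

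In the sexes taken separately, the male knockout pool was below the male wild-type pool for 9 of 9 members (median -0.17), as for 52.5% of features (median -0.04). Of the 9, Slc25a15, Ass1/Gm5424 and Arg1 were close to 0 at -0.03, -0.06 and -0.09. The female knockout pool was below the female wild-type pool for 4 of 9 (median 0.05), as for 53.7% of features (median -0.05). Asl and Arg1 were 22119.1 and 61224.4 in the female knockout pool, against 17458.1 and 48108.3 in the female wild-type pool, the pool with the low clock sum. Among the 61 genes of the wider lists the test called 1, where 1.45% of features were called: Prodh2, a hydroxyproline dehydrogenase, which fell to 1522.6 and 1584.7 in the female and male knockout pools, against 4673.5 and 3907.5 in the wild-type pools (-1.45 ± 0.22 SE, adjusted p = 0.0402). Of 8 other periportal genes, G6pc, the catalytic subunit of glucose-6-phosphatase, fell to 5559.4 and 2480.6 in the knockout pools, against 18953.5 and 9152.1 in the wild-type pools (-1.82 ± 0.19 SE, adjusted p = 0.0148). All 8 hepatocyte markers were lower in both knockout pools than in the wild-type pool of the same sex, with a median estimate of -0.26, against -0.05 over all features. All 8 Kupffer cell and macrophage markers had estimates below 0, with a median of -0.59 and 0 called. In the male pools alone 7 of these 8 were lower. All 7 endothelial markers past the filter were lower too, with a median of -1.12 and Stab2 and Oit3 called. Without the intensity trend in limma 1 feature in all was called and none of these 4 genes, each at an adjusted p of 0.207 or 0.208. Over 12 alternatives, Prodh2 was called in 5, G6pc in 7, Stab2 in 5 and Oit3 in 3. Alas2, an erythroid marker, was called lower as well (-1.48). It read 266.4 and 2236.0 in the female and male knockout pools, against 812.0 and 6014.2 in the wild-type pools. Without the trend its adjusted p was 0.208, and it was called in 5 of the 12 alternatives. The Actb ratio of 3′ to 5′ probe sets was 3.38 and 3.18 in the female and male knockout pools, against at most 2.62 in the wild-type pools. That of Gapdh was 0.955 and 1.09, against 0.938 and 0.982. The part of these cell types and of RNA integrity in the member differences was not tested.

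Females were compared with males among the young pools. Ass1 read 1267.5 and 1553.2 in the female knockout and wild-type pools, against 445.1 and 723.9 in the male pools, an estimate of 1.28 ± 0.24 (SE; 95% interval 0.72 to 1.84) with an unadjusted p of 0.000961 and an adjusted p of 0.171. Hal read 12358.5 and 11933.8 in the female pools, against 5997.8 and 7432.6 in the male pools, an estimate of 0.86 ± 0.20 (SE; adjusted p = 0.273). These were the 2 of 9 members with an unadjusted p under 0.05, against 9.21% of features. None of the 9 passed limma's adjusted test, which 0.272% of features did, although Ass1 passed after quantile normalization (1.20, adjusted p = 0.0384). Females lay above males with no overlap for 4 of 9, namely Slc25a15, Hal and both Ass1 probe sets, as for 17.6% of features. The shared Ass1/Gm5424 probe set differed by 0.26 ± 0.16. The erythroid marker Alas2 was called lower in females (-2.93), and the part of erythroid cell content in the member differences was not tested. In the aged adjacent livers, Hal read 10775.3 and 11314.6 in the females and 4799.3 in the only male. That male array also had the high neutrophil and low clock signals given above. In the HCC the order was the reverse, with Hal at 1348.8 in the female and 5068.1 in the male. Ass1 read 359.1 and 1500.7 in the adjacent livers of the females and 897.2 in that of the male.

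Over the 10 arrays the members did not all follow each other. The Pearson correlation of log2 signals was 0.92 between Cps1 and Arg1 and 0.89 between Asl and Ass1/Gm5424. It was 0.30 between Otc and Cps1 and -0.40 between Otc and Nags. Between the Ass1 and Ass1/Gm5424 probe sets it was only 0.36. The 1 gene most like each member was also sought among genes past the filter other than the members. It was Mcee for Otc (r = 0.98), Aass for Asl (0.98), Serpinf2 for Nags (0.96), Eif3m for Hal (0.95) and Fetub for Cps1 (0.94). For Slc25a15 it was Ttc36 (0.94), for Arg1 Fah (0.92), for Ass1 Hand2 (0.91) and for Ass1/Gm5424 Tra2b (0.88). These are descriptions over 10 arrays that share mice, pools and a common scaling, and the arrays of the female HCC and of the aged male weigh on them.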

How the data were processed

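RNA samples of mouse liver were measured on 10 Affymetrix arrays of 45101 probe sets. Per the labels, biotinylated cRNA was made from 5 ug of total RNA, and per the submitters' processing notes the authors used GCOS, whose version is not given in the sources used here. The deposited values are linear intensities with 1 value for each probe set. Every array had a trimmed mean of 500 with 2% left out at each end, so the authors' values share 1 scale. Precision is set by how few arrays there are.

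Gene names came from the platform annotation given, updated through RefSeq gene identifiers: 34958 probe sets had 1 gene (34754 matched), 932 had several and 9211 had no entry. A constant of 16.8, the 20th percentile over the table, was added before log2, so fold changes of dim genes are understated. Each gene was represented by its brightest probe set and kept where the mean was above the median signal of 91, which left 11033 genes, plus the shared Ass1/Gm5424 probe set. Models were fitted to all 11034 features with limma 3.58.1 in R 4.3.3 (intensity trend) and p-values adjusted by Benjamini-Hochberg. Sex, genotype or mouse was a term, and the fits left 1 or 2 residual degrees of freedom. The mouse pairing was inferred from sex and age. With a single young pool per genotype and sex, the spread in the young fits is how far the sexes or genotypes disagree. In the lesion fits it is how far the pairs disagree. For adjacent against young knockout liver it comes from the female adjacent livers and from disagreement between the sexes. Each spread also draws on that of all features. P-values therefore do not measure the spread between replicate pools. The procedure was tested on simulated data.

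Named were all members, and from each list the called genes, otherwise up to 4 with the largest differences. The members and lists were chosen with earlier results of these data known. Alternatives were halving or doubling the constant, quantile normalization, centring on the 75th percentile, the mean of all probe sets, no filter, no trend, a model over all arrays, no mouse block and leaving out arrays. Levels of different probe sets were not compared, and Sds and Gls2 were not analysed here.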

Additional observations from a re-analysis of the deposited data

Results flagged for a closer look

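Nags differed in opposite directions between the HCC pairs. In the male HCC it was higher than in the adjacent liver by 0.57 log2 units, and in the female HCC the log2 difference was -0.60. With 1 pair of each sex, the difference between these pairs was not tested, and sex, age and mouse cannot be told apart in it.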

How the results depend on the processing

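Across the alternatives, 540 member values were recomputed, with 3 calls and 37 changes of sign, and 27 of 45 member results never changed sign. One call was Hal in the HCC comparison without the male pair (-3.05, a single pair with the spread of the young pools). Another was Otc in adjacent against young knockout liver without the female young pool (-1.78). That fit sets a single male array against a single male pool, with the spread of the female adjacent livers. The last was Ass1 in females against males after quantile normalization (1 member called, 1.20, adjusted p = 0.0384). Adjusted p-values ranged from 0.0309 to 1.0 over the HCC alternatives, from 0.0184 to 1.0 over those for adjacent liver and from 0.0384 to 1.0 over those for sex. Otc, Slc25a15, Asl and both Ass1 probe sets kept a negative sign in every alternative run for the HCC and for all 3 lesions together, whereas in the nodule alone Otc was 0.01 after quantile normalization.

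Counts of all called features were less stable. For knockout against wild-type, 160 became 607 after quantile normalization, 313 after centring on the 75th percentile, 38 with the mean of all probe sets, 1 without the trend, 38 in the model over all arrays, and 15 to 22 leaving out a pool. For HCC, 9 became 3 (quantile), 4 (75th percentile), 16 (no filter), 0 (no trend) and 0 (all arrays), and 5 to 9 leaving out a pair. For all lesions, 1 became 3 (75th percentile), 0 (mean of probe sets), 3 (no filter) and 34 (all arrays), and 2 to 177 leaving out a pair, with 177 without the male pair. Without the mouse block, the pairing of lesion and adjacent liver dropped from the fit, 0 features were called for HCC and 0 for all lesions. For adjacent against young knockout liver, 0 became 16 (all arrays) and 0 to 440 leaving out an array, with 440 without the female young pool, 110 without the adjacent liver of the female aged 21 months and 9 without that of the female aged 14 months. For females against males, 30 became 87 (quantile), 19 (mean of probe sets) and 2 (no trend), and 9 to 26 leaving out a pool. The causes were not tested. Centring on the 75th percentile moved the median of all features by 0.15 for knockout against wild-type, -0.18 for adjacent liver and -0.12 for sex. The number of arrays, with 1 or 2 residual degrees of freedom, limits every comparison.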
